A study of Mus musculus with 8 samples.

Results

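The 7 globin genes measured here encode the subunits of mouse hemoglobin. They are Hba-a1, Hba-a2 and Hba-x of the alpha-globin cluster and Hbb-bs, Hbb-bt, Hbb-bh1 and Hbb-y of the beta-globin cluster, taken by symbol from the 55487 genes of the count table. Bulk RNA-seq was available for 8 samples of 500 LT-HSCs each, sorted from the E14.5 fetal liver as LSK CD48-CD150+ cells. LT-HSCs are the stem cells that repopulate blood over the long term. The embryos were IκBα WT (WT1, WT2, WT3), HET (HET1, HET2, HET3) or KO (KO1, KO2) in a line with a deleted Nfkbia allele, the gene for IκBα, and the question was what the loss of IκBα changes in these cells. WT1, WT2 and HET1 were male and labelled total RNA, whereas WT3, HET2, HET3, KO1 and KO2 were female and labelled polyA RNA, so sex and molecule label cannot be told apart and both KO samples were female. The deletion is constitutive, so all cells of a KO embryo carry it, and the methods state that a further KO sample was discarded for its sequencing quality. The mouse strain of these particular embryos is not given in the sources used here, and the sources state that genotypes were taken from a shared litter where that could be done, without saying which samples this covers, so p-values measure the spread between these samples.

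Hemoglobin is a tetramer of alpha-like and beta-like globin chains, each holding a heme group. In the mouse embryo the primitive red cells of the yolk sac use Hba-x (zeta), Hbb-y (epsilon-y) and Hbb-bh1 (beta-h1), and the definitive red cells of the fetal liver use the adult genes. The fetal liver at this stage makes red cells, and globin mRNA is among the most abundant mRNAs in erythroblasts, while stem cells are not known as globin producers.

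The genes lie in clusters on GRCm38, and each annotated main transcript has 3 exons. Hba-x is at chr11:32276400-32278116, Hba-a1 at chr11:32283511-32284465 and Hba-a2 at chr11:32296489-32297298, all on the plus strand. On the minus strand of chromosome 7, Hbb-y lies at chr7:103851749-103853216, Hbb-bh1 at chr7:103841637-103843164, Hbb-bs at chr7:103826534-103828096 and Hbb-bt at chr7:103812524-103813996. No other annotated gene overlapped any of them. All are protein-coding.

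The adult genes come as pairs of near-identical copies, which bears on every value given for them. The coding sequences of Hba-a1 and Hba-a2 shared 428 of 429 bases and differed by C381T, counted from the first coding base of Hba-a1, at the third base of codon 127. Those of Hbb-bs and Hbb-bt shared 443 of 444 bases and differed by C417T, counted likewise from Hbb-bs, at the third base of codon 139. By contrast Hbb-bh1 shared 339 of 444 bases with Hbb-y and 329 with Hbb-bs, and Hba-x shared 266 of 429 with Hba-a1. The coding windows that separate the copies are printed 5′ to 3′ from the reference transcripts with the differing base in capitals, for Hba-a1 (chr11:32284329-32284357), Hba-a2 (chr11:32297146-32297174), Hbb-bs (chr7:103826678-103826706) and Hbb-bt (chr7:103812669-103812697).
Hba-a1: catgcctctctggaCaaattccttgcctc
Hba-a2: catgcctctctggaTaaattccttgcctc
Hbb-bs: gtggctggagtggcCgctgccctggctca
Hbb-bt: gtggctggagtggcTgctgccctggctca

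Only uniquely mapped 50-bp reads were counted, so a read told the copies apart only where it crossed such a base or ran into a transcript end that differs. Of the 650 windows of 50 bases in the Hba-a1 transcript, 211 (32.5%) did not occur in another member, against 66 of 505 (13.1%) for Hba-a2, 198 of 579 (34.2%) for Hbb-bs and 273 of 654 (41.7%) for Hbb-bt. All windows of Hba-x, Hbb-bh1 and Hbb-y were their own. Counts of the copies are therefore lower than their RNA would give, and the uniqueness was checked against the annotated transcripts alone. For Hba-a1, 161 of the 211 windows start in the 161 transcript bases before the start that RefSeq gives. The 247 genome bases compared before the starts of Hba-a1 and Hba-a2 were identical. Reads were mapped to the genome, where those windows cannot separate the pair, which leaves the 50 Hba-a1 windows over C381T. Which copy of the pair is undercounted most is thus not settled.

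The promoters of the genes share the letters of the classical globin elements, and 3 are shown because they stand for an adult beta, an embryonic beta and an adult alpha gene. The RefSeq table of promoters (GRCm38.p6) held 6 of the 7 members. The bases before the start of the main transcript are printed 5′ to 3′ on the strand of the gene (for Hbb-bs they lie inside the gene's annotated span), with matches to a CACCC box, a CCAAT box and a TATA box in capitals. They are Hbb-bs (chr7:103827929-103828048, minus strand), Hbb-y (chr7:103853217-103853327, minus strand) and Hba-a2 (chr11:32296372-32296488, plus strand).
Hbb-bs: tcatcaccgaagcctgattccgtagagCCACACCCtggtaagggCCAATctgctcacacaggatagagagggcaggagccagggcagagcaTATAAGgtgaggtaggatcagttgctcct
Hbb-y: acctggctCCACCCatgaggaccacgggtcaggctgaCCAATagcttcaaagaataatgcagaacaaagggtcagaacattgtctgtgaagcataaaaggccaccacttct
Hba-a2: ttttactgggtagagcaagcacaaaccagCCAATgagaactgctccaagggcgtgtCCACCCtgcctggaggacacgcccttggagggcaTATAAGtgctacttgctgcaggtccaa

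The search read both strands of the 250 bases before the start. It used CCACACCC and CCACCC, with ACACCC, which overlaps the first of these, for the CACCC box. It used CCAAT for the CCAAT box, and TATAAA with TATAAG for the TATA box. All 6 promoters held a CACCC box, 5 a CCAAT box (not Hba-x) and 5 a TATA box (not Hbb-y). Of all 27025 promoters of that length, 37.1% held a CACCC box, 34.5% a CCAAT box and 17.7% a TATA box. A GATA site was searched as AGATAA and as AGATAG, and with a T first as TGATAA and as TGATAG. One of these was in 27.1% of promoters and in those of Hbb-bs, Hbb-y, Hba-x, Hba-a1 and Hba-a2. The promoters of Hba-a1 and Hba-a2 were identical over the 247 bases compared, whereas those of Hbb-bs and Hbb-bt shared 127 of 249.

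The libraries held 17895973 to 21720972 counted reads, at which 3 reads, the smallest level taken as detected, equal 0.125 to 0.178 CPM. CPM here means reads scaled by the TMM-adjusted library size, as edgeR gives them. Nfkbia had 1 read in KO1 and 0 in KO2, against 243 to 1621 reads in the WT and HET samples. Among 10 LT-HSC marker genes the summed level ranged from 319 to 2286 CPM in WT, from 211 to 842 in HET and from 1358 to 2102 in KO. WT3 (319 CPM) and HET3 (211 CPM) were the lowest, and in HET3 the stem cell marker Cd34 was at 7.53 CPM, so these libraries stand apart from the label of sorted LT-HSCs. The summed level of 10 hepatocyte genes was also highest there, at 1538 CPM in WT3 and 787 in HET3, against 50.0 to 313 in the other samples. Values without these 2 libraries are given for the globins and for the counts of the gene lists in KO.

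Globin reads were found in every sample, and the adult genes carried nearly all of them. The plot of CPM by gene and sample shows each value. Per kb of transcript, the order of the mean levels over the 8 samples was Hbb-bs (2194 CPM per kb), Hbb-bt (1236), Hba-a1 (1125), Hba-a2 (121), Hbb-bh1 (8.31), Hbb-y (1.34) and Hba-x (0.369). Neighbours at the top were not separated by their spread, since Hbb-bs exceeded Hbb-bt in 5 of 8 samples and Hbb-bt exceeded Hba-a1 in 4. Hba-a1 exceeded Hba-a2 in all 8 samples, and Hba-a2 exceeded Hbb-bh1 in all 8. Hbb-bh1 exceeded Hbb-y in 5 of 8 samples, and Hbb-y exceeded Hba-x in all 8. Scaled instead per kb of windows unique among the transcripts, Hba-a1 (3727 CPM per kb) came before Hbb-bt (3182), and Hbb-bs (6957) stayed first. That scaling uses all 211 windows of Hba-a1, of which 161 are not unique in the genome. With the other 50 alone its value would be higher, so the order at the top is not settled. In bulk RNA, fewer cells of a type and less RNA per cell cannot be told apart.

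**Figure D1:**
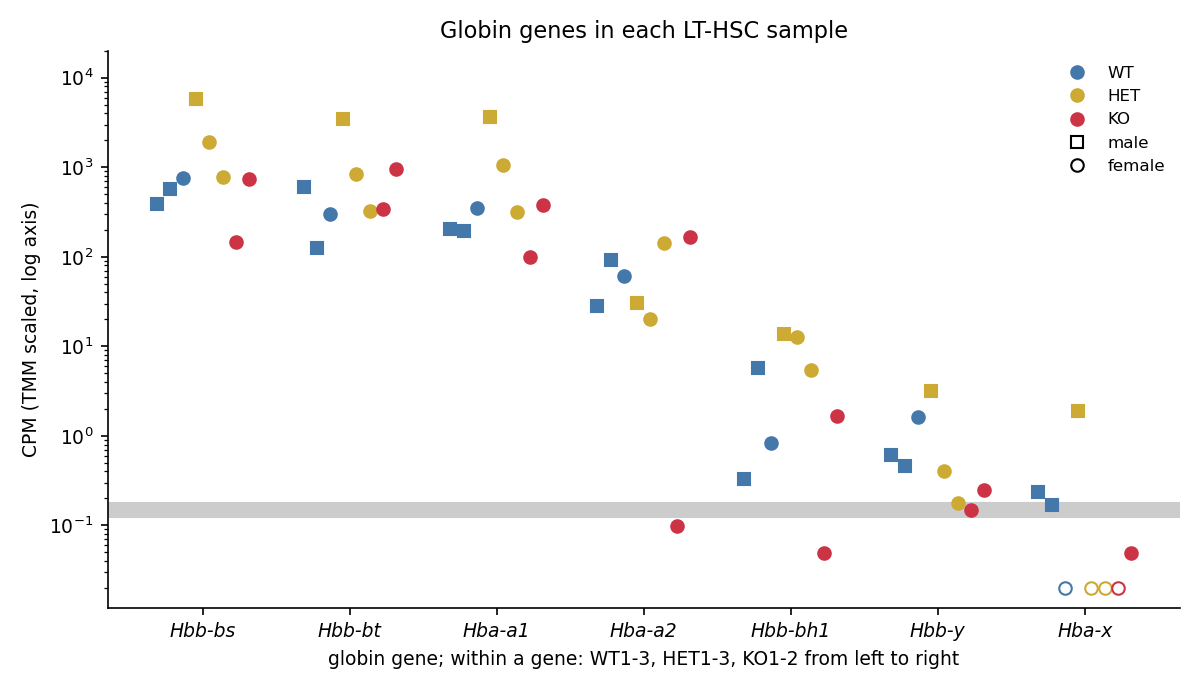
CPM of each globin gene (log axis) in the 8 samples, 1 point per sample, colored by genotype, squares male and circles female. Open points at the bottom had 0 reads, and the grey band is the level of 3 reads (0.125 to 0.178 CPM). HET1 is the highest sample for all genes but Hba-a2, and Hbb-bs, Hbb-bt and Hba-a1 are at 99.3 CPM or more in every sample.

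Hbb-bs, an adult beta gene, was at 387, 571 and 759 CPM in WT1, WT2 and WT3. It was at 5740, 1898 and 775 CPM in HET1, HET2 and HET3, and at 147 and 744 CPM in KO1 and KO2. All 3 HET samples lay above all 3 WT samples, HET3 by a small margin over WT3, and KO1 was the lowest of the 8. The other adult beta gene, Hbb-bt, was at 607, 126 and 304 CPM in WT, at 3451, 841 and 329 CPM in HET and at 343 and 950 CPM in KO. Its genotype groups overlapped, with WT2 lowest and KO2 second to HET1.

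The alpha chains are made from Hba-a1 and Hba-a2. Hba-a1 was at 205, 194 and 353 CPM in WT1, WT2 and WT3, at 3673, 1064 and 319 CPM in HET1, HET2 and HET3, and at 99.3 and 384 CPM in KO1 and KO2. HET1 and HET2 were above all WT samples and HET3 was not, and the KO samples bracketed the WT samples. Hba-a2 was at 28.5, 93.0 and 60.6 CPM in WT, at 30.4, 20.03 and 141 CPM in HET and at 0.0979 and 165 CPM in KO. It followed another order than the other adult genes, since HET1 and HET2 were low and HET3 and KO2 high. KO1 had only 2 reads of Hba-a2, under the 3-read level, beside 2030 reads of Hba-a1.

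The embryonic beta genes were low. Hbb-bh1, which is also known from early definitive cells, was at 0.328, 5.77 and 0.833 CPM in WT, at 13.8, 12.9 and 5.46 CPM in HET and at 0.0489 and 1.67 CPM in KO. HET1 and HET2 lay above every other sample, WT2 exceeded HET3, and the 1 read of KO1 was under the 3-read level. Hbb-y was at 0.608, 0.460 and 1.61 CPM in WT, at 3.14, 0.404 and 0.178 CPM in HET and at 0.147 and 0.246 CPM in KO. These values rest on 3 to 59 reads, and the groups overlapped.

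The embryonic alpha gene Hba-x was near the limit of detection. It had 5, 4 and 0 reads in WT1, WT2 and WT3, 36, 0 and 0 reads in HET1, HET2 and HET3, and 0 and 1 read in KO1 and KO2. Reads of Hba-x at or above 3 were thus seen in the male samples WT1, WT2 and HET1 and in no female sample. In HET1 the 36 reads equal 1.91 CPM. In the 4 samples with 0 reads the depth allows up to 0.147 to 0.178 CPM.

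Taken as shares of all counted reads, the 7 globins together took 0.134%, 0.115% and 0.131% in WT1, WT2 and WT3. They took 1.25%, 0.355% and 0.134% in HET1, HET2 and HET3, and 0.0673% and 0.229% in KO1 and KO2. The WT samples were close to each other (0.126% ± 0.0102, SD, n = 3), whereas the HET samples spread widely (0.580% ± 0.592, SD, n = 3) and the KO samples differed 3.81-fold on the CPM scale (0.148% ± 0.114, SD, n = 2). On that scale the globin sum was 10.5-fold the WT mean in HET1, 3.11-fold in HET2 and 1.27-fold in HET3. Wilson 95% intervals on these shares are narrow (1.247% to 1.257% in HET1) and cover counting error only, because the reads carry no molecular identifiers. Without HET1 the HET mean was 0.245%.

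The embryonic genes took a share under 1% of globin reads in all samples. The share was 0.0952%, 0.645% and 0.166% in WT, 0.146%, 0.346% and 0.359% in HET and 0.0332% and 0.0877% in KO. WT2 was highest, and both KO samples were below the 6 others. The interval of KO2 (0.0644% to 0.119%) overlapped that of WT1 (0.0645% to 0.141%), and the share of KO1 rests on 4 embryonic reads. Within the embryonic beta reads, Hbb-bh1 made up 92.6% in WT2, 81.4% in HET1, 97.0% in HET2, 96.8% in HET3 and 87.2% in KO2, but 35.0% of 20 reads in WT1, 34.0% of 47 in WT3 and 25.0% of 4 in KO1. The mixture of Hbb-bh1 and Hbb-y therefore differed between samples of a genotype by more than counting error, as shown by the intervals of WT2 (87.3% to 95.8%) and WT3 (22.2% to 48.3%).

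**Figure D2:**
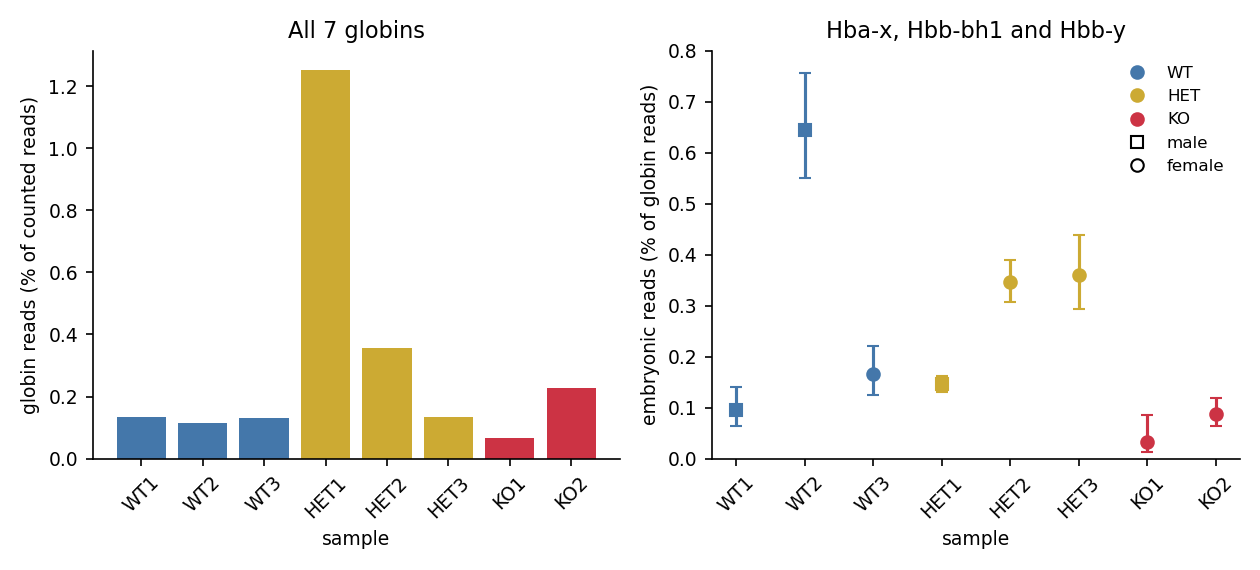
Left, reads of all 7 globins as a percentage of counted reads in each sample (bars). Right, reads of Hba-x, Hbb-bh1 and Hbb-y as a percentage of globin reads with 95% Wilson intervals. HET1 reaches 1.25% on the left, and the KO samples are lowest on the right at 0.0332% and 0.0877%.

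Beta-like reads made up 71.0% to 81.0% of globin reads in WT, 70.7% to 71.7% in HET and 75.6% to 83.1% in KO. The highest shares were in KO1 (83.1%) and WT1 (81.0%). These are read shares without correction for the different number of uniquely placed windows. Scaled per window unique among the transcripts, the beta-like share ranged from 58.5% in HET3 to 80.9% in KO1. These shares use all 211 windows of Hba-a1, and would be lower with only those that are unique in the genome.

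The copies of a pair were split differently in different samples. Hba-a2 took 12.2%, 32.4% and 14.6% of the reads of Hba-a1 and Hba-a2 in WT1, WT2 and WT3, 0.820%, 1.85% and 30.7% in HET1, HET2 and HET3, and 0.0984% and 30.0% in KO1 and KO2. WT2, HET3 and KO2 thus lay near 30%, WT1 and WT3 below 15%, and HET1, HET2 and KO1 below 2%. Hbb-bt took 61.1%, 18.02% and 28.6% of the reads of Hbb-bs and Hbb-bt in WT, 37.5%, 30.7% and 29.8% in HET and 70.0% and 56.1% in KO. WT3, HET2 and HET3 were alike at 28.6% to 30.7%, whereas WT1, KO1 and KO2 were above 50%. The 95% Wilson intervals were narrow, for example 56.1% (55.6% to 56.6%) in KO2 and 18.02% (17.4% to 18.6%) in WT2, and did not overlap between those samples. The orders of samples differed between the pairs, since KO1 had the lowest share of Hba-a2 and the highest of Hbb-bt, while KO2 was high in both. Whether sequence differences between the embryos and the reference at the few separating bases contribute was not tested.

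**Figure D3:**
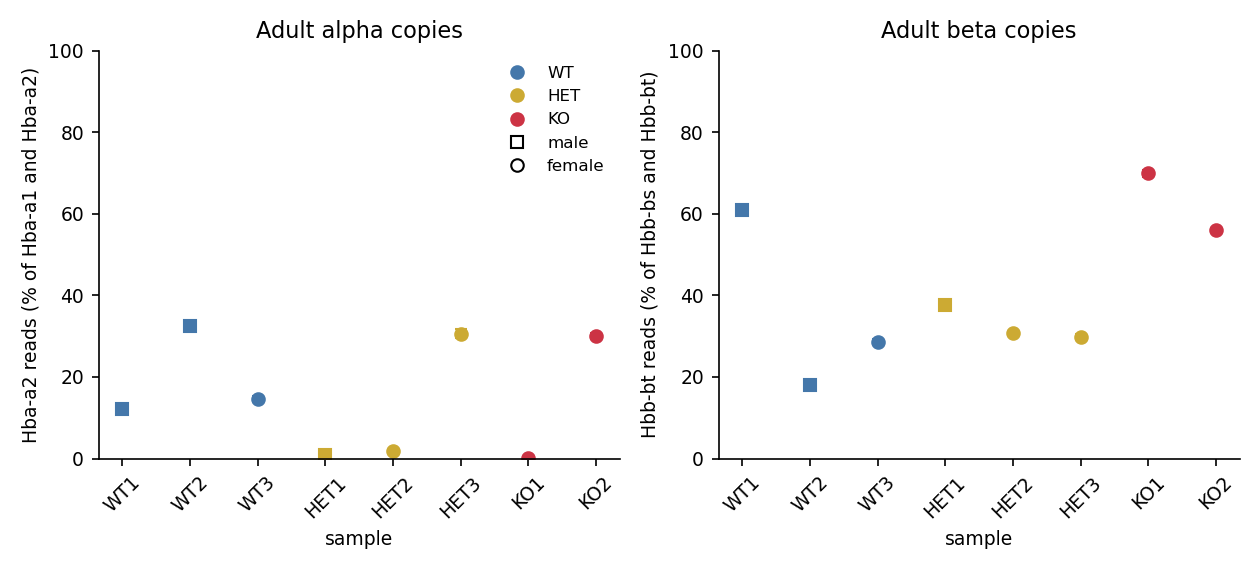
Left, Hba-a2 as a percentage of the reads of Hba-a1 and Hba-a2. Right, Hbb-bt as a percentage of the reads of Hbb-bs and Hbb-bt, each by sample with 95% Wilson intervals that are mostly smaller than the points. Hba-a2 ranges from 0.0984% to 32.4% and Hbb-bt from 18.02% to 70.0%, in different orders of samples.

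HET embryos keep 1 functional Nfkbia allele, and HET was compared with WT to ask whether gene dose alone moves the globins. Fold changes are log2 values from edgeR's quasi-likelihood test with sex in the model, and a gene was called where its adjusted p was under 0.05 and its log2 fold change beyond 1 either way. None of the 7 globins was called, as was none of the 20610 genes tested (0%). Before adjustment 4 of 7 had p under 0.05 and were higher in HET, where 1.80% of all genes did so. With the replicate number as a block, this held for 1 of 7 (Hbb-bh1), against 0.820% of all genes. They were Hba-a1 (log2 fold change 2.59 ± 0.806, SE, adjusted p = 0.932), Hbb-bs (2.20 ± 0.672, 95% interval from 0.58 to 3.82), Hbb-bt (2.09 ± 0.773) and Hbb-bh1 (2.78 ± 1.11), the last 3 at the same adjusted p. DESeq2 also called 0 of 7, and it called 0.311% of the genes it adjusted. In DESeq2 4 of 7 had an unadjusted p under 0.05, and its share of all genes at that level is not given here. All HET samples exceeded all WT samples for 1 member, Hbb-bs, and for 4.20% of all genes (for Hbb-bs p = 0.1 in an exact two-sided permutation test, which cannot go lower with 3 against 3).

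The differences of Hba-a1, Hbb-bs and Hbb-bt were carried mainly by HET1, and that of Hbb-bh1 was not. Without HET1 the log2 fold change of Hba-a1 was 0.97, that of Hbb-bs 0.81 and that of Hbb-bt 0.94, while that of Hbb-bh1 was 3.45, and adjusted p-values were 1. Leaving out WT3 and HET3 instead gave 4.20 for Hba-a1 (adjusted p = 3.73e-06), 3.58 for Hbb-bs (2.65e-05), 3.24 for Hbb-bt (0.00366) and 2.54 for Hbb-y (0.0451), by edgeR. In that fit 4 of 7 globins and 40 of the 63 genes of the hemoglobin lists described below were called, against 9.53% of all genes. The sex term is then set by HET2 alone, so that the fit compares the single HET1 with WT1 and WT2 and assumes that it varies like the others. Hba-a2 did not take part, with -0.29 ± 0.900 (SE) over all samples, and Hbb-y had 0.13 ± 1.29 and Hba-x 3.05 ± 1.21.

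Erythroid marker genes were measured beside the globins. Their summed level was 518, 499 and 3049 CPM in WT1, WT2 and WT3 and 2707, 2790 and 3603 CPM in HET1, HET2 and HET3, and 7 of the 9 measured had an unadjusted p under 0.05 and were higher in HET, against 1.80% of all genes, with none called. Within HET the order was opposite to that of the globin sum, which was 12913, 3836 and 1569 CPM in HET1, HET2 and HET3. WT3 had 6.11-fold the erythroid marker level of WT2, and its globin sum was 1.49-fold that of WT2. Globins and these markers thus parted within both WT and HET, and the part of erythroid cells in the HET values was not tested.

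**Figure D4:**
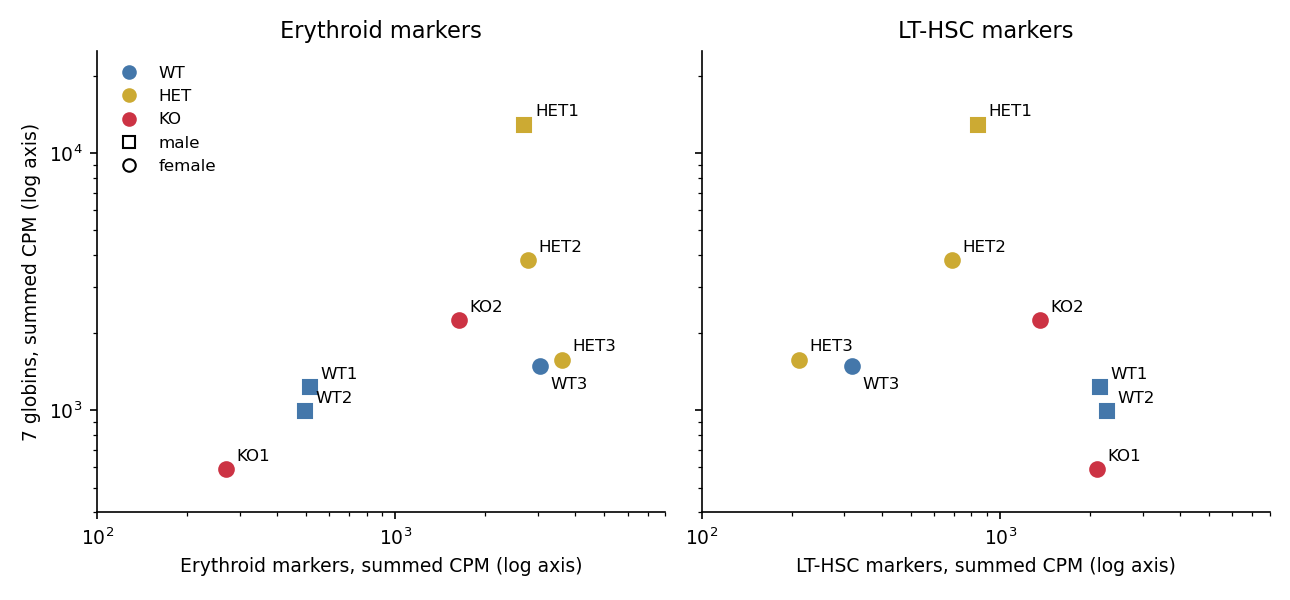
Summed CPM of the 7 globins against the summed CPM of the erythroid markers (left) and of the LT-HSC markers (right), both axes logarithmic, 1 point per sample. HET3 and WT3 have the most erythroid marker RNA (3603 and 3049 CPM) but globin sums near those of WT1 and WT2, while HET1 has the highest globin sum (12913 CPM).

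KO was compared with the pooled WT and HET samples to ask what loss of IκBα does to globin RNA. No member was called by edgeR, as was no gene at all (0%), or by limma-voom (0% of all genes). DESeq2 called 0 of the 4 members that it gave an adjusted p, where it called 12.7% of all such genes, and it gave no p for Hbb-bs and Hba-a1. Before adjustment, edgeR had 0 of 7 members under 0.05 against 25.2% of all genes. Where limma-voom had 0 and DESeq2 1, their shares of all genes at that level are not given here. That member was Hbb-bh1, with an adjusted p of 0.118 in DESeq2. The adjusted p-values of edgeR ranged from 0.316 to 0.966 over the members. Hbb-bh1 had the lowest, with a log2 fold change of -2.88 ± 1.74 (SE) and a 95% interval from -6.85 to 1.09.

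The adult genes did not move one way. The log2 fold change was -1.36 ± 1.19 (SE) for Hbb-bs, with a 95% interval from -4.08 to 1.36, and -1.26 ± 1.31 for Hba-a1, but 0.39 ± 1.10 for Hbb-bt and 0.16 ± 1.59 for Hba-a2. Hbb-y had -1.87 ± 1.28, and Hba-x had 2.31 ± 2.08 with 1 read in KO, or -3.67 without sex in the model. The median over the 7 members was -1.26, beside 0.13 over all genes. The intervals are wide and leave room for large changes in either direction. Single libraries moved the values, since Hbb-bs was at -0.62 without KO1, -0.78 without HET2 and -2.96 without KO2. Hbb-bh1 was at -1.93 without KO1, -1.85 without HET2 and -6.86 without KO2. Hba-a1 was at -0.47 without HET2, -0.59 without KO1 and -2.54 without KO2. Hbb-y was at -0.58 without WT3. The choice of reference also moved them. Against WT alone, Hbb-bs was at -0.76, Hba-a1 at -0.54, Hbb-bh1 at 0.053 and Hbb-y at -2.99. Against HET alone, Hbb-bs was at -1.59, Hba-a1 at -1.52, Hbb-bh1 at -3.40 and Hbb-y at -0.56. In KO1 and KO2 together no member was below all 6 WT and HET samples, as were 1.79% of all genes, and none was above them, as were 3.05%. Against the 3 female WT and HET samples alone, 1 of 7 (Hbb-bs) had both KO samples below, where 21.4% of all genes did.

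KO1 and KO2 differed from each other in the adult genes and Hbb-bh1. The globin sum was 589 CPM in KO1 and 2243 CPM in KO2, on either side of the WT mean (1233 ± 244 CPM, SD, n = 3). The erythroid marker sum had the same order, with KO1 at 271 and KO2 at 1636 CPM, and 1 of the 9 markers measured was lower in KO at an unadjusted p under 0.05, where 9.48% of all genes were. All 10 LT-HSC markers were higher in KO at that level in the fit with sex, as were 15.7% of all genes. Their sums of 2102 CPM in KO1 and 1358 in KO2 were nevertheless below those of WT1 (2158 CPM) and WT2 (2286), and above WT3 (319), HET1 (842), HET2 (689) and HET3 (211). Without WT3 and HET3, 2 of the 10 LT-HSC markers were higher at that level, against 4.07% of all genes. All 10 were above 0 in that fit, with a median of 1.52, beside 2.65 with all samples. Of the 9 erythroid markers 0 were lower at that level, against 1.02%. All 9 were nevertheless below 0, with a median of -1.35, beside -1.52 with all samples. The part of either cell type in the globin values was not tested. Summing the copies before the test removed the split between Hbb-bs and Hbb-bt, and gave -0.58 ± 1.08 (SE) for adult beta and -1.01 ± 1.23 for adult alpha (edgeR adjusted p = 0.758 and 0.626). Without KO2, Hbb-bt changed sign (-0.52), and Hba-a2 was at -9.47, which rests on the 2 reads of KO1. Without WT3 and HET3, Hbb-bs was at -2.12, Hba-a1 at -2.17 and Hbb-bt at -0.41, but Hba-a2 at 2.01. In that fit Hbb-bh1 was at -3.92, Hbb-y at -1.05 and Hba-x at 2.34, with none of the 7 called.

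**Figure D5:**
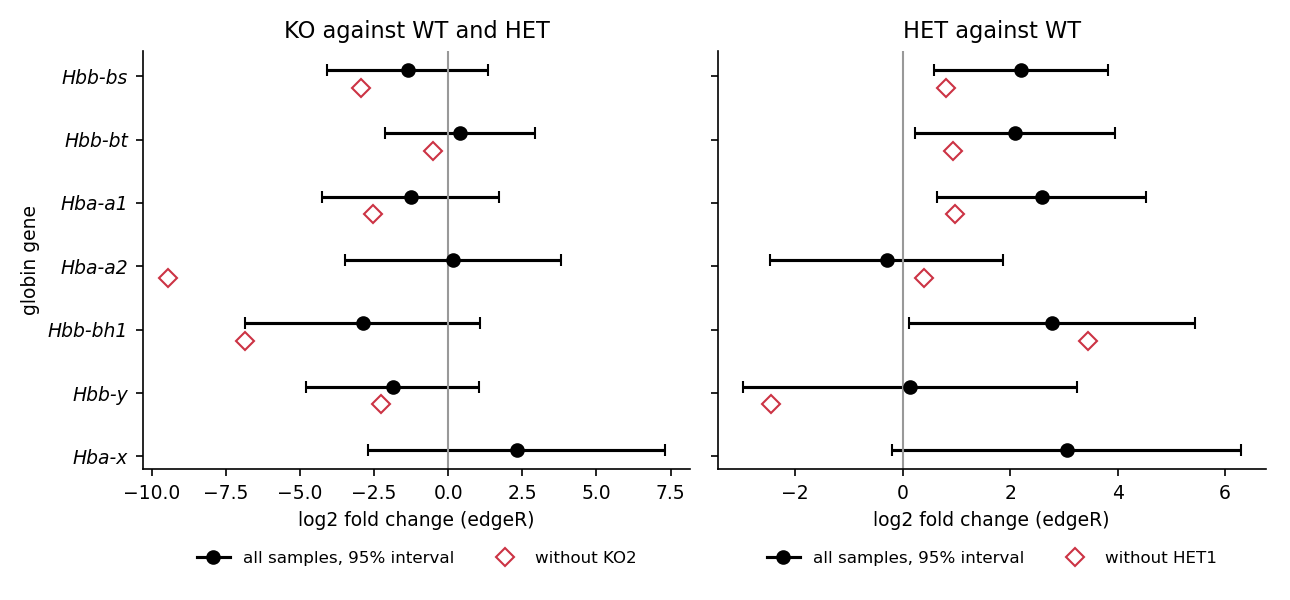
Log2 fold change (edgeR) of each globin for KO against WT and HET (left) and HET against WT (right). Black points with bars are the values over all samples with 95% intervals, and open red diamonds the values without KO2 or without HET1. All intervals on the left include 0, and the diamonds on the right lie nearer to 0 for Hbb-bs, Hbb-bt and Hba-a1.

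Male and female samples were compared within WT and HET, with genotype in the model. None of the globins was called by edgeR, beside 0.0146% of all genes, and none of the 6 with an adjusted p by DESeq2, beside 12.6%. At an unadjusted p under 0.05, 1 of 7 was higher in male samples with either tool, against 10.7% of all genes with edgeR. This was Hba-x (log2 fold change 7.60 ± 1.5, SE, edgeR adjusted p = 0.176), whose female samples were all at 0. Against the 3-read level of the female libraries its male mean was at least 4.77-fold higher, with 5, 4 and 36 reads, but at least 1.24-fold higher without HET1. The log2 fold change without HET1 was 5.03 ± 2.704 (SE), and its unadjusted p no longer passed 0.05. The other members had log2 fold changes from -0.70 (Hba-a2) to 1.42 (Hbb-bt), with adjusted p-values of 0.301 to 0.708. Without HET1 those of Hba-a1 (-0.88), Hbb-bs (-0.72) and Hbb-y (-1.64) were below 0.

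The genes that serve hemoglobin were then examined. In 7 lists with 63 genes tested, none was called in KO. At an unadjusted p under 0.05, 15 of the 63 were lower in KO, where 9.48% of all genes were, and 1 was higher. In HET against WT, 30 of the 63 were higher at that level, against 1.80% of all genes, and 0 lower, again with none called. The lowest adjusted p by edgeR was 0.148 in KO and 0.932 in HET. DESeq2 called 6 of the 61 that it gave an adjusted p in KO, all lower, namely Alad, Ppox, Glrx5, Tspo2, Rhag and Gfi1b, which is no larger a share than the 12.7% it called of all genes. Without a filter on low counts edgeR called 3 of the 63, against 3.51% of all genes. Without WT3 and HET3, 2 of the 63 were lower at the unadjusted level, against 1.02% of all genes, with none called, and the median in KO was -1.09. The median log2 fold change of the 63 was -0.95 in KO and 0.85 in HET, beside 0.13 and 0.0013 over all genes. The lists were chosen with earlier results known, so the counts are a description.

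For heme synthesis (8 genes) the median log2 fold change in KO was -1.28, with 3 lower at the unadjusted level, against 9.48% of all genes. Without WT3 and HET3, 1 was lower at that level, against 1.02%, while all 8 were below 0 and the median was -1.45. Alad, an early enzyme of the pathway, was at 194, 181 and 1872 CPM in WT, 1043, 1305 and 2000 in HET and 114 and 515 in KO (-2.46 ± 0.920, SE, or -2.08 ± 1.18 without WT3 and HET3). Cpox had -1.33 and Urod had -1.09. Alas2, the erythroid enzyme that starts heme synthesis, is described below with the genes most like Hbb-bs.

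Iron supply (10 genes) had a median of -0.81, with 3 lower at the unadjusted level, against the same 9.48%. Without WT3 and HET3, iron supply had 0 lower at that level, against 1.02%, but all 10 below 0 and a median of -1.12. Its most abundant genes were Fth1, the ferritin heavy chain (-0.70 ± 0.260, SE), Glrx5, which serves iron-sulfur clusters (-1.48), Tfrc, the transferrin receptor (-1.63) and the iron transporter Slc11a2 (-1.44). Of the 9 chaperone and red cell enzyme genes measured, 4 were lower, again beside 9.48% of all genes, and the median was -1.05. Without WT3 and HET3, 1 of the 9 was lower at that level, against 1.02%, while 8 of the 9 were below 0 and the median was -1.05. The list was led by Gpx1 (-0.63), the carbonic anhydrase Car2 (-0.68), the peroxiredoxin Prdx2 (-1.05) and the biliverdin reductase Blvrb (-1.89). Car2 and Bpgm, which makes the allosteric regulator of hemoglobin, were the 2 of the 63 genes with both KO samples below the 6 others, a pattern that 1.79% of all genes had. Ahsp, the alpha-globin chaperone, was not analysed here.

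Red cell membrane genes (14) had a median of -1.48 in KO, with 1 lower at the unadjusted level, against 9.48% of all genes. Without WT3 and HET3, 0 were lower at that level, against 1.02%, but 13 of 14 were below 0 and the median was -1.53. In HET the median was 1.45, with 13 of 14 higher at the unadjusted level, against 1.80% of all genes. Rhag, of the Rh complex, was at 70.9, 71.5 and 361 CPM in WT, 258, 390 and 523 in HET and 32.5 and 179 in KO (-2.004 ± 0.799, SE, or -1.91 ± 1.05 without WT3 and HET3). Ermap had -1.87 and Rhd had -1.62. Rhag was highest in HET3 and lowest in KO1, whereas Hbb-bs was highest in HET1.

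Among 11 erythroid transcription factors and cofactors, 1 was higher and 2 lower in KO at the unadjusted level, beside 15.7% and 9.48% of all genes, and the median was -0.36. Without WT3 and HET3, 0 were higher and 0 lower at that level, against 4.07% and 1.02% of all genes. In that fit 7 of the 11 were below 0, and the median was -0.38. Klf1, which activates adult beta-globin, was at 114, 85.4 and 1040 CPM in WT, 731, 941 and 1227 in HET and 36.2 and 518 in KO. It was lowest in KO1, as Hbb-bs was, but highest in HET3 and not in HET1. Lmo2 (0.27), Nfe2 (0.84 ± 0.258, SE, higher at the unadjusted level) and the repressor Gfi1b (-1.49) completed the most abundant genes. Factors known to silence embryonic globins, 10 in all, had a median of -0.33, with 2 lower at the unadjusted level, against 9.48% of all genes. Without WT3 and HET3, 0 were lower at that level, against 1.02%, while 7 of the 10 were below 0 and the median was -0.45. Bcl11a was at 168, 181 and 288 CPM in WT, 229, 271 and 295 in HET and 149 and 208 in KO (-0.67 ± 0.200, SE, unadjusted p = 0.00903, edgeR adjusted p = 0.151). Myb had -0.35, Mbd2 had -0.98 and Chd4 had 0.07. Thus WT3 and HET3 were high in Bcl11a, and their embryonic shares of globin reads were 0.166% and 0.359%.

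Of the 6 other globin superfamily genes, only Hbq1b (theta globin) passed the filter of 10 reads. It was at 1.59, 0.961 and 2.76 CPM in WT, 16.8, 7.67 and 2.25 in HET and 0.294 and 2.705 in KO, in an order much like that of Hbb-bs. Its log2 fold change was -1.49 ± 1.37 (SE) in KO and 2.29 ± 0.818 in HET. Hbq1a and the cytoglobin gene Cygb had 6 and 5 reads over all samples, the neuroglobin gene Ngb 1, and the myoglobin gene Mb and Hbb-bh2 had 0.

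The genes closest to Hbb-bs across the 8 samples were looked up by Pearson's r of log2 CPM among 10100 genes, as a description of samples that share depth and composition. Among the 10 nearest outside the members were Csmd2 (r = 0.993), Alas2 (0.983), Slc25a37 (0.978), Hemgn (0.977), Ackr1 (0.970), Epb42 (0.969), Dhrs11 (0.961), Dmtn (0.959) and Yod1 (0.954). Alas2 was at 26.8, 24.4 and 27.6 CPM in WT, 213, 69.0 and 36.7 in HET and 9.49 and 31.7 in KO. Csmd2, a large membrane protein gene best known from brain, was at 3.42, 3.43 and 6.25 CPM in WT, 41.3, 13.5 and 4.98 in HET and 0.881 and 5.16 in KO. Slc25a37 carries iron into mitochondria, and Epb42 and Dmtn encode parts of the red cell membrane skeleton. In all 9 of these genes HET1 was highest, HET2 second and KO1 lowest, as for Hbb-bs.

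Among the members Hba-a1 had rank 3 in that order (r = 0.980) and Hbb-bh1 rank 47 (0.852). Hbb-bt followed at rank 318 (0.697), Hbb-y at 407 (0.676), Hba-x at 983 (0.598) and Hba-a2 at 2727 (0.470). The adult copies Hbb-bt and Hba-a2 were thus farther from Hbb-bs than many erythroid genes were. Hbb-bt and Hba-a2 had r = 0.0179 with each other.

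Over the 6 WT and HET samples the globins varied more than most genes. The SD of log2 CPM was 1.65 for Hba-a1, 1.41 for Hbb-bs, 1.63 for Hbb-bt, 1.10 for Hba-a2, 2.07 for Hbb-bh1, 1.29 for Hbb-y and 1.70 for Hba-x. The median over all 20610 genes was 0.648. All members were thus above the median, from the 76.1 percentile (Hba-a2) to the 96.0 percentile (Hbb-bh1).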

How the data were processed

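Bulk RNA-seq counts of 8 samples of sorted E14.5 fetal liver LT-HSCs were analysed. The deposited raw counts were made by the authors from 50-bp single-end reads trimmed with Trim Galore 0.6.6 and mapped with STAR 2.7.8 to GRCm38, keeping unique reads with at most 1 mismatch and counting them per gene. The strand setting is not given in the sources used here. The deposited log2 values are a variance-stabilizing transformation (DESeq2 1.38.3) from which the authors removed the sex effect, and they were used for 1 alternative without a test.

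Genes with at least 10 reads over the 8 samples (20610) were tested with edgeR 4.0.16 (quasi-likelihood, TMM, Benjamini-Hochberg) in R 4.3.3, with sex and genotype as terms. KO was compared with pooled WT and HET, and HET with WT and male with female over the 6 WT and HET samples. Intervals of fold changes are 95%. DESeq2 1.42.0, limma 3.58.1 (voom) and apeglm 1.24.0 served as alternatives, besides other scalings, filters and left-out samples. Counts were simulated with 200 genes changed by a log2 fold change of 2, drawn from those with a mean above 5 CPM. There the KO comparison recovered 148 with edgeR (9 false calls) and 168 with DESeq2 (74 false calls). The simulation used the dispersion trend over all genes and not that of single genes. Its recovery therefore does not carry over to Hba-x and Hbb-y, which lie under that level, or to genes more variable than the trend. Precision is limited by 2 to 3 samples per group.

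Named were the 7 members, the 4 most abundant measured genes of each companion list with any that passed the call, the 10 genes with at least 5 CPM most correlated with Hbb-bs (log2 CPM, prior count 2), and Nfkbia. Ppox, Tspo2, Bpgm and Alas2 were added after their values were seen. Some genes that this rule names are not reported here. The members and lists were chosen with earlier results of these data known. WT and HET share replicate numbers, and deviations from the group means of same-numbered samples correlated at 0.29, 0.20 and 0.59, which met the rule for treating the numbers as pairs (every r over 0.1). This is weak ground, since WT2 and HET1 correlated at 0.40 and WT1 and HET2 at 0.23, and the sources do not tie a number to a litter. Megakaryocyte marker sums were 23.7 to 1315 CPM, macrophage 39.1 to 481, neutrophil 88.1 to 676 and those of genes outside the LT-HSC gate 48.0 to 164.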

Additional observations from a re-analysis of the deposited data

Results flagged for a closer look

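Among the 6 WT and HET samples, HET1 stood far above the rest on the CPM scale. The gap from HET1 to the next sample, as a share of the whole range, was 0.750 for Hba-a1, 0.878 for Hba-x, 0.718 for Hbb-bs and 0.785 for Hbb-bt, and 0.789 for the share of all globins among counted reads. Each exceeds Dixon's critical value of 0.625 for 6 samples. Chance exceeds it in about 1 of 20 groups, the 5 values come from the same library and are not independent, and on the log2 scale no member exceeded it.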

How the results depend on the processing

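No globin was called in KO against WT and HET in any of the settings tried, and no globin in HET against WT except 4 without WT3 and HET3. That setting and the summed copies were chosen after seeing the data. Of the 63 companion genes edgeR called 0 in KO, and 0 without WT3 and HET3. It called 3 without a filter on low counts, where 3.51% of all genes were called in both directions together. DESeq2 called 6, with or without apeglm, where 12.7% of all genes were called without apeglm, again in both directions together. In KO, the log2 fold change turned for Hba-a2 with limma-voom (-3.61), the authors' sex-corrected values (-0.997) and summed copies (-1.01). It turned for Hba-x without the sex term (-3.67), for Hbb-bh1 against WT alone (0.053), and for Hbb-bt without the sex term (-0.55), with summed copies (-0.58), with the replicate block (-0.65) and without WT3 and HET3 (-0.41). In HET it turned for Hba-a2 without the sex term (0.070).

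With the replicate block the number of globins called was 0 in KO, HET and the male comparison, and no call changed, but the number of globins higher in HET at an unadjusted p under 0.05 went from 4 to 1. Under the replicate block the sign turned in HET for Hba-a2 (0.66) and Hbb-y (-0.16), and in male against female for Hba-a1 (-0.45), Hba-a2 (2.88) and Hbb-bt (-1.43). KO shares 2 numbers with the other groups, and the same-numbered pairs correlated from -0.35 to 0.28, so there the samples share only a number.

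Leaving out 1 sample at a time, the KO value ran from -9.47 to 1.16 for Hba-a2 and from -0.52 to 1.04 for Hbb-bt. The HET value ran from -1.25 to 0.40 for Hba-a2 and from -2.44 to 2.54 for Hbb-y. In male against female, it ran from -0.88 to 2.41 for Hba-a1, -1.40 to 0.25 for Hba-a2, -0.72 to 2.10 for Hbb-bs, -0.10 to 1.81 for Hbb-bh1 and -1.64 to 3.39 for Hbb-y, and 0 to 1 globins were called, the 1 being Hba-x without HET2. Hba-x gave no value without KO2 in KO and without HET1 in HET. The cause of these turns was not tested. Hba-x and Hbb-y rest on few reads, and the unique reads of the adult copies on few bases.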
